A study of Sus scrofa with 12 samples.

Results

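The 10 genes described here encode the TGF-beta ligands TGFB1, TGFB2 and TGFB3, the receptors TGFBR1, TGFBR2 and TGFBR3, the latent TGF-beta binding proteins LTBP1 and LTBP2, and the intracellular proteins SMAD3 and SMAD7. They were chosen by symbol from the table of coding genes and are 10 of its 21674 genes. RNA was sequenced from whole testes of 12 boars after removal of ribosomal RNA, and the study asked how testicular RNA differs between a small Chinese plateau pig, Hezuo (HZ), and Landrace (LC), at a younger and an older age. Group Ha held HZ boars aged 30 days, Hb held HZ boars aged 120 days, La held LC boars aged 30 days and Lb held LC boars aged 120 days. Each group had 3 boars, every library came from a different animal, and the testes were taken by castration. The estimated counts per library ran from 22538417 to 23758931 (median 23490893) in Ha, from 17165519 to 22707568 (median 20678367) in Hb, from 18523274 to 23563949 (median 22233155) in La and from 18998959 to 23253496 (median 22951618) in Lb. The lowest estimated count of any of the 10 genes in any library was 36.59 (LTBP2 in Hb2).

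TGF-beta ligands are secreted in a latent complex with their own propeptide, which LTBP proteins tether to the extracellular matrix until it is activated. The active ligand binds TGFBR2, which recruits and phosphorylates TGFBR1, and TGFBR1 in turn phosphorylates SMAD2 and SMAD3, which act in the nucleus with SMAD4, while SMAD7 inhibits the receptor. In the testis, ligands and receptors are known in Sertoli, Leydig, peritubular and germ cells, whose proportions change between the prepubertal and the mature gland.

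Levels are given as CPM (counts scaled to a common library total, by TMM over the 12 libraries) where libraries are compared for 1 gene, and as FPKM (fragments scaled to transcript length and library total) where genes are compared with each other. A fold change is on the log2 scale, the group named last over the group named before it, and carries its standard error (SE). A gene is called where the adjusted p of edgeR's quasi-likelihood test was under 0.05 and its log2 fold change was above 1 or below -1. The smallest p that an exact permutation test over 3 boars against 3 allows is 0.1, so the tests rest on the fit across all genes. The 4 comparisons share libraries, each group entering a comparison of ages and one of breeds. Whole testes were measured, and CPM and FPKM are relative to all the RNA of a library. Fewer cells of a type, less RNA per cell and more RNA from other cells therefore cannot be told apart.

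Library Hb1 stood apart from the other Hb libraries in markers of Leydig cells, the testosterone-producing cells between the tubules, whose 7 genes summed to 4070 CPM in Hb1, 331 CPM in Hb2 and 268 CPM in Hb3. Without Hb1, 9 of the 10 genes were called from Ha to Hb, as with it (8279 in place of 8510 of all genes). From Hb to Lb 1 in place of 2 was called (622 in place of 628 of all genes). In the difference between the breeds in the change with age, 3 in place of 2 were called (987 in place of 890 of all genes). Those of the 10 genes concerned are named with their values where they are described. Among the 10 genes, Hb3 was the lowest Hb library for TGFB1, TGFB3, TGFBR2, TGFBR3, LTBP1 and SMAD3, and the highest for TGFBR1 and LTBP2. It also had the lowest total count, 17165519. Without Hb3, 9 of the 10 were called from Ha to Hb (8353 of all genes). From Hb to Lb 0 were (119 of all genes), with 5 at an unadjusted p under 0.05.

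From 30 to 120 days, most of the 10 genes fell in both breeds and TGFB2 rose. In HZ boars 9 of the 10 were called (51.4% of all genes tested were called), of which 8 were lower at 120 days (23.2% of all genes) and 1 was higher (28.2% of all genes). In LC boars 8 were called (47.6% of all genes), of which 7 were lower at 120 days (20.1% of all genes) and 1 was higher (27.5% of all genes). By adjusted p alone, all 10 passed in LC boars, where 70.0% of all genes did. With so many genes called between the ages, a call by itself sets none of the 10 apart, and no test of the 10 as a set was made. The median log2 fold change of the 10 genes was -2.04 from Ha to Hb and -1.53 from La to Lb, beside -0.020 and 0.011 over all genes tested.

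The breeds differed in few of these genes. At 30 days 1 of the 10 was called, SMAD7, higher in LC boars (7.62% of all genes were called in either direction and 3.6% as higher in La), and 3 passed by adjusted p alone (21.3% of all genes). At 120 days TGFB3 and LTBP1 were called, both higher in LC boars (3.85% of all genes were called in either direction and 2.65% as higher in Lb). Both calls were lost without any of Hb3, Lb1, Lb2 or Lb3, where edgeR called 0 of the 10 (4 or 5 at an unadjusted p under 0.05), and with the replicate block (6), while DESeq2 on all 6 libraries called 3. The log2 fold changes in those 5 fits were 1.48 to 1.78 for TGFB3, beside 1.70, and 0.895 to 1.15 for LTBP1, beside 1.08. The 628 genes called in all became 119, 182, 97 and 139 without these libraries, 154 with the block, and 1029 without Hb2, where 3 of the 10 were called. TGFB3 and LTBP1 were also called in the test of whether the change with age differed between the breeds (5.14% of all genes in either direction and 3.51% with the higher value in LC). The median log2 fold change of the 10 was 0.21 from Ha to La and 0.67 from Hb to Lb, against 0.0020 and 0.0044 over all genes.

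The directions over all genes depend on the scaling and on the fit, the limma fits differing from the others in unit, test and filter as well. Of the genes called from Ha to Hb, 54.8% were higher at 120 days with TMM, 44.1% with scaling by library size alone, 56.8% with RLE, 56.8% with DESeq2, and 42.7% and 39.6% with limma on FPKM at the larger and smaller pseudocount. The corresponding shares from La to Lb were 57.7% with TMM, 50.7% with library size alone, 58.7% with RLE, 59.2% with DESeq2, and 52.4% and 47.2% with the limma fits. Between Hb and Lb, 68.8% of the called genes were higher in Lb with TMM, 76.1% with library size alone, 66.8% with RLE, 65.8% with DESeq2, and 80.0% and 79.2% with the limma fits. For the difference in the change with age, 68.4% of the called genes had the higher value in LC with TMM, 81.6% with library size alone, 63.3% with RLE, 59.5% with DESeq2, and 77.9% and 78.2% with the limma fits. Library size alone moved the median log2 fold change of all genes to -0.325 from Ha to Hb, to -0.157 from La to Lb and to 0.174 in the difference. The limma fit with the smaller pseudocount moved it to -0.444, -0.244 and 0.188 and, from Hb to Lb, to 0.119. For all 10 genes the sign of the change with age was the same under every scaling run, in HZ and in LC boars.

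**Figure D1:**
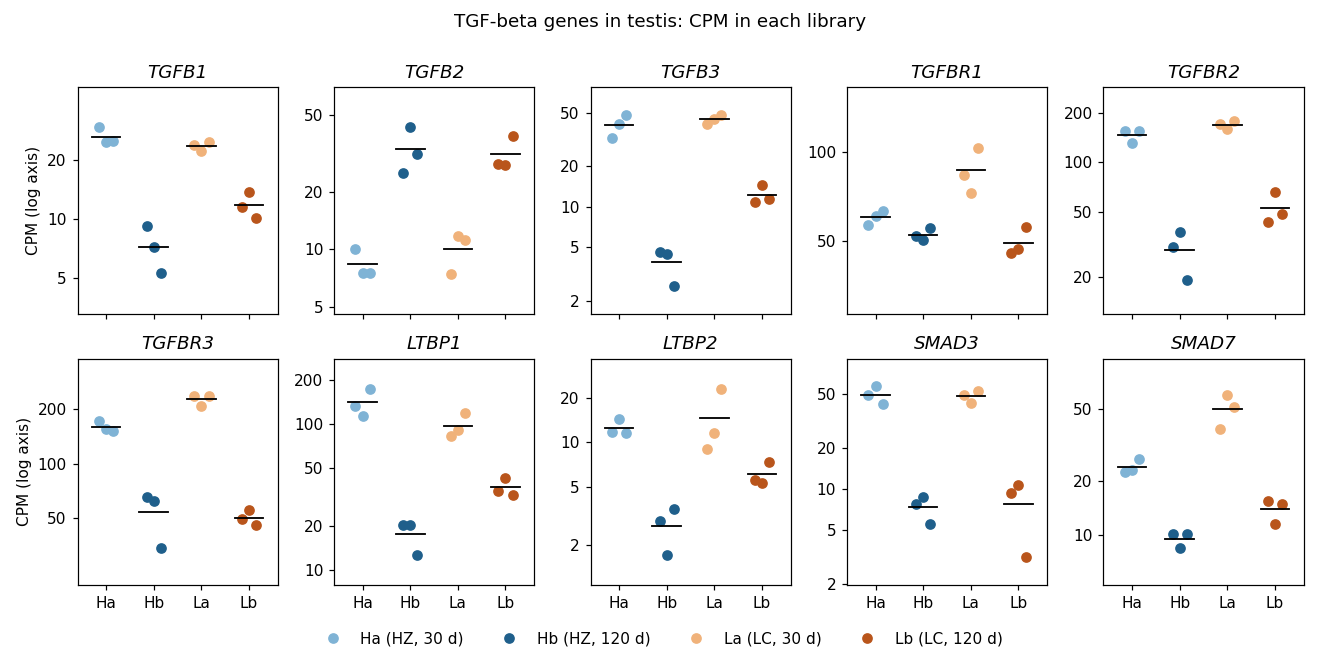
CPM of the 10 genes (vertical axis, logarithmic) in each library of the 4 groups (horizontal axis), with 1 point per boar and a black line at the group mean, n = 3. TGFB2 is the gene whose points lie higher at 120 days, with 24.9 to 43.6 CPM in Hb against 7.51 to 10.02 CPM in Ha.

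Per length, a receptor was the most abundant of the 10 in every group. In Ha the highest mean FPKM was that of TGFBR2, 28.8 ± 2.63 (SD, n = 3), whose libraries overlapped those of TGFBR3 at 27.6 ± 0.973, and the lowest was that of LTBP2, 1.16 ± 0.148. The La order began with TGFBR3 at 39.8 ± 2.92 FPKM and TGFBR2 at 32.5 ± 2.07 FPKM, without overlap between their libraries, and ended with TGFB2 at 1.85 ± 0.447 and LTBP2 at 1.32 ± 0.697, which overlapped. The order was another at 120 days, with TGFBR1 at the top in both breeds. In Hb, TGFBR1 at 8.88 ± 0.877 FPKM, TGFBR3 at 6.73 ± 2.27, TGFB2 at 4.42 ± 1.58 and TGFBR2 at 4.11 ± 1.51 followed each other with overlapping libraries, and TGFBR2 did not overlap LTBP1 after it. In Lb, TGFBR1 at 9.61 ± 1.42 FPKM, TGFBR2 at 8.18 ± 1.67 and TGFBR3 at 7.18 ± 0.461 likewise followed each other with overlapping libraries, and TGFB2 came next at 4.65 ± 1.28 without overlapping TGFBR3. LTBP2 had the lowest mean in Hb, 0.18 ± 0.05 FPKM, and in Lb, 0.447 ± 0.116 FPKM, where its libraries overlapped those of SMAD3.

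The mix of ligands differed between the ages. The FPKM of the 3 ligands summed to 20.9 ± 1.25 in Ha, 6.76 ± 1.78 in Hb, 20.9 ± 1.39 in La and 10.2 ± 1.26 in Lb. TGFB2 made up 9.48, 6.92 and 7.91% of that sum in the Ha libraries and 53.1, 69.8 and 70.9% in the Hb libraries. In LC boars its share was 6.88, 10.3 and 9.25% in La and 43.6, 38.4 and 52.9% in Lb. TGFB2 was thus the smallest share in every 30-day library and the largest in every 120-day library. The share of TGFB3 was 44.7, 55.7 and 57.5% in Ha, 13.6, 10.7 and 8.89% in Hb, 56.5, 57.6 and 56.8% in La and 26.2, 29.1 and 23.8% in Lb. Every 30-day library had a larger TGFB3 share than every 120-day library, and every Lb library a larger one than every Hb library. TGFB1 held 39.3 ± 5.82% in Ha, 24.3 ± 7.72% in Hb, 34.2 ± 2.25% in La and 28.7 ± 4.80% in Lb. Of the summed receptor FPKM, TGFBR1 made up 17.6, 21.0 and 19.7% in Ha, 40.6, 38.5 and 59.2% in Hb, 19.9, 18.7 and 22.6% in La and 39.3, 34.0 and 42.3% in Lb. That share was larger in every 120-day library than in every 30-day library, while the summed receptor FPKM was 70.0 ± 3.13 in Ha, 19.7 ± 2.98 in Hb, 91.0 ± 8.08 in La and 25.0 ± 2.72 in Lb. These shares and sums were not tested. The FPKM sums carry no TMM scaling, so the size of their change with age differs from that in CPM. From Ha to Hb, mean TGFBR1 went from 13.6 to 8.88 FPKM and from 60.2 to 52.7 CPM. Mean TGFB2 went from 1.69 to 4.42 FPKM and from 8.35 to 33.3 CPM.

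**Figure D2:**
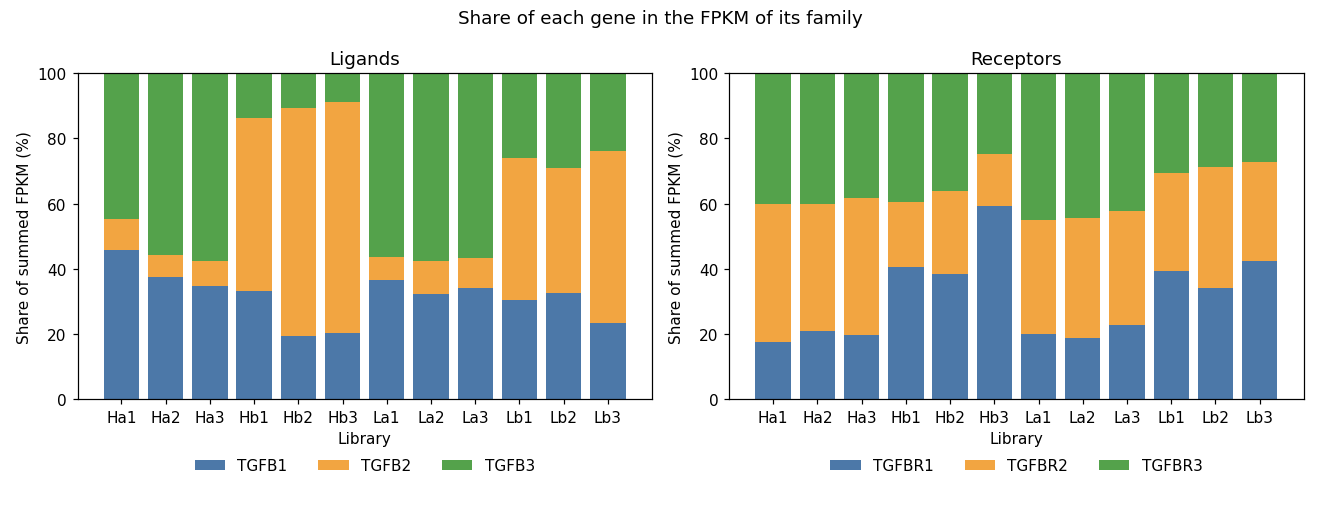
Share of each ligand and of each receptor in the summed FPKM of its family (vertical axis, percent), as stacked bars with 1 bar per library (horizontal axis). TGFB2 takes 6.88 to 10.3% of the ligand bars at 30 days and 38.4 to 70.9% at 120 days.

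TGFB1, the ligand best known for its effects on immune cells and matrix, lies at chromosome 6, positions 49332169 to 49348642 of Sscrofa11.1 (ncbi_397078). It was at 29.2, 24.6 and 24.9 CPM in Ha and at 9.22, 7.20 and 5.28 CPM in Hb. In LC boars it was at 23.7, 22.3 and 24.6 CPM in La and at 11.5, 13.7 and 10.2 CPM in Lb. All 30-day libraries were above all 120-day libraries, and all Lb libraries were above all Hb libraries. TGFB1 fell by 1.86 on the log2 scale from Ha to Hb (SE 0.23, edgeR adjusted p = 0.000344). From La to Lb its log2 fold change was -0.98 (SE 0.16, edgeR adjusted p = 0.000662), just short of the fold threshold. It was called there in 6 of 16 alternatives, among them without La2 (-1.03, adjusted p = 0.00261) and without Lb2 (-1.10, adjusted p = 0.000738). The others were library size alone (-1.15), limma at the larger pseudocount (-1.06), limma at the smaller one (-1.27) and no fold threshold, which adds it by its construction. Adjusted p ran from 1.14e-06 to 0.00407 over the 16 alternatives. The breeds were not called different, with log2 fold changes of -0.16 from Ha to La (SE 0.11, edgeR adjusted p = 0.343) and 0.75 from Hb to Lb (SE 0.26, edgeR adjusted p = 0.129). The difference between the breeds in the change with age was 0.86 (LC minus HZ, SE 0.28, edgeR adjusted p = 0.0822), and it was called in 3 of 21 alternatives, one of them without Hb1 (1.09, adjusted p = 0.0293, range over the alternatives 0.024 to 0.168). Over the 12 libraries the genes with the most similar log2 CPM were ABCC3 (Pearson r = 0.995) and SIPA1 (r = 0.993). Here and for the other genes r is a description over 12 libraries that fall into 2 ages, and no p is attached to it.

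TGFB2, a ligand that needs TGFBR3 for strong binding to TGFBR2, lies at chromosome 10, positions 8306136 to 8435307 (ncbi_397084). Its level was 10.02, 7.51 and 7.53 CPM in Ha and 24.9, 43.6 and 31.4 CPM in Hb. The LC libraries gave 7.42, 11.7 and 11.2 CPM in La and 28.0, 27.4 and 39.1 CPM in Lb. Every 120-day library was above every 30-day library, and the breeds overlapped at both ages. TGFB2 was the 1 member of the 10 that rose, by 1.99 on the log2 scale from Ha to Hb (SE 0.25, edgeR adjusted p = 0.000328) and by 1.66 from La to Lb (SE 0.23, edgeR adjusted p = 0.000286). Both calls were lost only with limma on FPKM at the larger pseudocount, where the log2 fold changes were 0.976 (adjusted p = 0.00527, the highest of the 16 alternatives, the lowest being 3.44e-13) and 0.975. Between breeds the log2 fold change was 0.27 from Ha to La (SE 0.22, edgeR adjusted p = 0.422) and -0.04 from Hb to Lb (SE 0.26, edgeR adjusted p = 0.939), the latter with a sign that changed with the scaling. The difference in the change with age was -0.35 (SE 0.35, edgeR adjusted p = 0.577). PTGFR (r = 0.978) and MBD6 (r = 0.978) had the most similar log2 CPM.

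TGFB3, a ligand with roles in epithelial and blood-testis barrier remodelling, lies at chromosome 7, positions 99133873 to 99162239 (ncbi_397400). It was at 32.4, 41.6 and 48.4 CPM in Ha and at 4.58, 4.46 and 2.57 CPM in Hb. In LC boars it was at 41.5, 45.3 and 48.4 CPM in La and at 10.8, 14.4 and 11.4 CPM in Lb. The 30-day libraries of both breeds overlapped and lay above all others, and at 120 days every Lb library was above every Hb library. From Ha to Hb TGFB3 fell by 3.39 on the log2 scale (SE 0.28, edgeR adjusted p = 4.98e-05), and from La to Lb it fell by 1.87 (SE 0.15, edgeR adjusted p = 1.31e-05). The difference between these changes was 1.51 (LC minus HZ, SE 0.31, edgeR adjusted p = 0.018), called in 20 of 21 alternatives and lost with limma at the larger pseudocount (0.971, adjusted p = 0.0123, range over the alternatives 0.000212 to 0.044). At 30 days the breeds were not called different (log2 fold change 0.14, SE 0.15, edgeR adjusted p = 0.533). At 120 days TGFB3 was higher in LC boars by 1.70 (SE 0.30, edgeR adjusted p = 0.0241). That call was lost with the replicate block (1.73, adjusted p = 0.0633) and without Hb3 (1.48, 0.0596), Lb1 (1.78, 0.065), Lb2 (1.57, 0.0903) or Lb3 (1.73, 0.0806), and it was made in 11 of 16 alternatives with adjusted p from 1.45e-05 to 0.0903. TBC1D13 (r = 0.995) and CRISPLD2 (r = 0.992) had the most similar log2 CPM.

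TGFB3 had the largest fold change with age of the 10 in HZ boars and is the one of the 10 for which the study designed PCR primers, so the primers are shown, 5′ to 3′, in lower case with no base marked. Each has 19 bases, of which 10 are G or C in the forward primer and 8 in the reverse primer.
TGFB3 forward: gtgtggacagtgaggatga
TGFB3 reverse: aaattgcggaagcagtagt

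TGFBR1, the type I receptor kinase that phosphorylates SMAD2 and SMAD3, lies at chromosome 1, positions 240842735 to 240918267 (ncbi_396665). Its libraries gave 56.7, 60.6 and 63.4 CPM in Ha and 52.2, 50.4 and 55.5 CPM in Hb. They gave 83.9, 72.9 and 104 CPM in La and 45.6, 47.1 and 55.8 CPM in Lb. All Ha libraries were above all Hb libraries by a small margin, all La libraries were above all others, and Hb and Lb overlapped. TGFBR1 was the 1 member not called with age in HZ boars (log2 fold change -0.19, SE 0.12, edgeR adjusted p = 0.176), and it was called in 0 of 16 alternatives, in which its log2 fold change ran from -0.609 to -0.14 and its adjusted p from 0.0036 to 0.358. The adjusted p was under 0.05 with limma at the larger pseudocount (-0.563, 0.0036), with limma at the smaller one (-0.609, 0.00396) and with library size alone (-0.501, 0.00691). From La to Lb it was -0.79 (SE 0.16, edgeR adjusted p = 0.00224), past the adjusted p and short of the fold threshold. The same held from Ha to La, where it was 0.53 (SE 0.13, edgeR adjusted p = 0.0275). At 120 days the breeds differed by -0.04 (SE 0.15, edgeR adjusted p = 0.882), and this sign changed with the scaling. The difference in the change with age was -0.62 (SE 0.19, edgeR adjusted p = 0.077). ZNF12 (r = 0.954) and NOC3L (r = 0.947) had the most similar log2 CPM.

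TGFBR2, the type II receptor that binds the ligand and activates TGFBR1, lies at chromosome 13, positions 16784370 to 16875828 (ncbi_100038019). Its level was 155, 131 and 156 CPM in Ha and 30.7, 37.8 and 19.3 CPM in Hb. It was 172, 159 and 179 CPM in La and 43.5, 65.8 and 48.5 CPM in Lb. All 30-day libraries were above all 120-day libraries, and within each age all LC libraries were above all HZ libraries. TGFBR2 fell by 2.33 on the log2 scale from Ha to Hb (SE 0.245, edgeR adjusted p = 0.000143) and by 1.68 from La to Lb (SE 0.16, edgeR adjusted p = 2.96e-05), and both calls held in all 16 alternatives. Between breeds its log2 fold change was 0.20 from Ha to La (SE 0.09, edgeR adjusted p = 0.158) and 0.88 from Hb to Lb (SE 0.28, edgeR adjusted p = 0.101). The latter was called without Hb2 (1.14, adjusted p = 0.0449) and in no other of the 16 alternatives, and adjusted p ran from 0.0236 to 0.266 over all of them. The difference in the change with age was 0.64 (SE 0.31, edgeR adjusted p = 0.229). GLUD1 (r = 0.995) and COLEC12 (r = 0.994) had the most similar log2 CPM.

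TGFBR3, or betaglycan, a co-receptor that presents TGFB2 to TGFBR2 and also binds inhibin, lies at chromosome 4, positions 125109939 to 125310788 (ncbi_397512). It was at 171, 156 and 152 CPM in Ha and at 65.4, 62.3 and 34.3 CPM in Hb. It was at 238, 209 and 239 CPM in La and at 49.7, 55.8 and 45.8 CPM in Lb. La was above Ha in every library, both were above all 120-day libraries, and Hb and Lb overlapped. From Ha to Hb TGFBR3 fell by 1.56 on the log2 scale (SE 0.24, edgeR adjusted p = 0.000914), and from La to Lb it fell by 2.16 (SE 0.12, edgeR adjusted p = 1.01e-06), both called in all 16 alternatives. At 30 days its log2 fold change between breeds was 0.51 (SE 0.09, edgeR adjusted p = 0.00812), past the adjusted p and short of the fold threshold. At 120 days it was -0.06 (SE 0.25, edgeR adjusted p = 0.907), with a sign that changed with the scaling. The difference in the change with age was -0.61 (SE 0.28, edgeR adjusted p = 0.204). DENND4B (r = 0.989) and ITPRIPL2 (r = 0.986) had the most similar log2 CPM.

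LTBP1, which binds the latent complex covalently and anchors it in the matrix, lies at chromosome 3, positions 106300748 to 106724538 (ncbi_100627243). Its level was 133, 113 and 174 CPM in Ha and 20.4, 20.3 and 12.7 CPM in Hb. In LC boars it was 82.6, 90.9 and 118 CPM in La and 35.0, 42.5 and 32.6 CPM in Lb. All 30-day libraries were above all 120-day libraries, Ha and La overlapped, and every Lb library was above every Hb library. LTBP1 fell by 2.97 on the log2 scale from Ha to Hb (SE 0.25, edgeR adjusted p = 5.17e-05) and by 1.39 from La to Lb (SE 0.17, edgeR adjusted p = 0.000111). The difference between these changes was 1.57 (LC minus HZ, SE 0.31, edgeR adjusted p = 0.0153), and it was called in all 21 alternatives. From Ha to La its log2 fold change was -0.53 (SE 0.18, edgeR adjusted p = 0.0754). At 120 days LTBP1 was higher in LC boars by 1.08 (SE 0.23, edgeR adjusted p = 0.0389). That call was made in 9 of 16 alternatives, with adjusted p from 0.000511 to 0.129. It was lost with limma at the larger pseudocount (0.885, adjusted p = 0.0361), with the replicate block (1.11, 0.066) and without Hb1 (1.17, 0.0563), Hb3 (0.895, 0.0841), Lb1 (1.12, 0.0951), Lb2 (0.979, 0.129) or Lb3 (1.15, 0.0999). TMEM45A (r = 0.989) and NRK (r = 0.988) had the most similar log2 CPM.

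LTBP2, a protein of the same family that is associated with elastic fibres and is not known to bind the latent complex, lies at chromosome 7, positions 97744974 to 97852848 (ncbi_100514300). It was at 11.7, 14.4 and 11.5 CPM in Ha and at 2.90, 1.72 and 3.50 CPM in Hb. It was at 8.95, 11.5 and 23.2 CPM in La and at 5.50, 5.32 and 7.34 CPM in Lb. All 30-day libraries were above all 120-day libraries, La3 was the highest of all, and every Lb library was above every Hb library. LTBP2 fell by 2.22 on the log2 scale from Ha to Hb (SE 0.31, edgeR adjusted p = 0.000568), a call lost with limma at the larger pseudocount (-0.871, adjusted p = 0.000151, range over 16 alternatives 8.72e-10 to 0.0035). From La to Lb it fell by 1.25 (SE 0.36, edgeR adjusted p = 0.0139). This call was lost without La3 (-0.74, adjusted p = 0.0425) and with limma at the larger pseudocount (-0.641, adjusted p = 0.0175), and adjusted p ran from 0.00178 to 0.0468 over 16 alternatives. Between breeds the log2 fold change was 0.22 from Ha to La (SE 0.33, edgeR adjusted p = 0.679) and -0.285 without La3. At 120 days it was 1.22 (SE 0.35, edgeR adjusted p = 0.0812), called with DESeq2 (1.2, adjusted p = 0.0231) and with all 12 libraries fitted together (1.17, adjusted p = 0.0487) but in none of the other 14 alternatives, whose adjusted p reached 0.24. The difference in the change with age was 0.96 (SE 0.50, edgeR adjusted p = 0.268), with a range of 0.229 to 1.52 over 21 alternatives, the highest without La3, and it was called in none of them (adjusted p from 0.0722 to 0.56). FOCAD (r = 0.967) and LOX (r = 0.947), a collagen and elastin cross-linking enzyme, had the most similar log2 CPM.

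SMAD3, the transcription factor that carries the signal of TGFBR1 into the nucleus, lies at chromosome 1, positions 164998457 to 165124455 (ncbi_397260). Its libraries gave 49.6, 57.1 and 42.3 CPM in Ha and 7.83, 8.73 and 5.61 CPM in Hb. They gave 49.7, 42.8 and 53.0 CPM in La and 9.39, 10.7 and 3.18 CPM in Lb. The 30-day libraries lay well above the 120-day libraries in both breeds, the breeds overlapped at each age, and Lb3 was the lowest of the 12. SMAD3 fell by 2.74 on the log2 scale from Ha to Hb (SE 0.22, edgeR adjusted p = 4.05e-05) and by 2.63 from La to Lb (SE 0.37, edgeR adjusted p = 0.000299), both called in all 16 alternatives. The log2 fold change between breeds was -0.04 from Ha to La (SE 0.14, edgeR adjusted p = 0.876) and 0.11 from Hb to Lb (SE 0.43, edgeR adjusted p = 0.901). Both signs turned when single libraries were left out. The difference in the change with age was 0.10 (SE 0.47, edgeR adjusted p = 0.928). SMAD1 (r = 0.989), which carries BMP signals, and CHCHD10 (r = 0.983) had the most similar log2 CPM.

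SMAD7, the inhibitory SMAD that blocks TGFBR1 and is itself induced by TGF-beta, lies at chromosome 1, positions 98512800 to 98543924 (ncbi_100521305). It was at 22.3, 22.8 and 26.4 CPM in Ha and at 10.1, 8.40 and 10.02 CPM in Hb. It was at 38.6, 59.7 and 51.6 CPM in La and at 15.4, 11.5 and 14.9 CPM in Lb. All 30-day libraries were above all 120-day libraries, and within each age all LC libraries were above all HZ libraries. SMAD7 fell by 1.33 on the log2 scale from Ha to Hb (SE 0.17, edgeR adjusted p = 0.000385) and by 1.82 from La to Lb (SE 0.20, edgeR adjusted p = 6.91e-05), both called in all 16 alternatives. At 30 days it was higher in LC boars by 1.065 (SE 0.17, edgeR adjusted p = 0.00514). SMAD7 was the only one of the 10 genes called between breeds at 30 days, and the call was made in 13 of 16 alternatives, with adjusted p from 1.51e-07 to 0.0259. The value lay short of the fold threshold with limma at the larger pseudocount (0.892, adjusted p = 0.00803), with limma at the smaller one (0.989, 0.00772) and with edgeR without La2 (0.934, 0.0188). In these 3 fits 0 of the 10 genes were called from Ha to La and 4 had an unadjusted p under 0.05, while DESeq2 called 1. At 120 days its log2 fold change was 0.60 (SE 0.21, edgeR adjusted p = 0.129), and the difference in the change with age was -0.51 (SE 0.26, edgeR adjusted p = 0.248). MFSD7 (r = 0.983) and an assembled transcript of INHBA (r = 0.981), which encodes the activin A subunit, had the most similar log2 CPM.

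**Figure D3:**
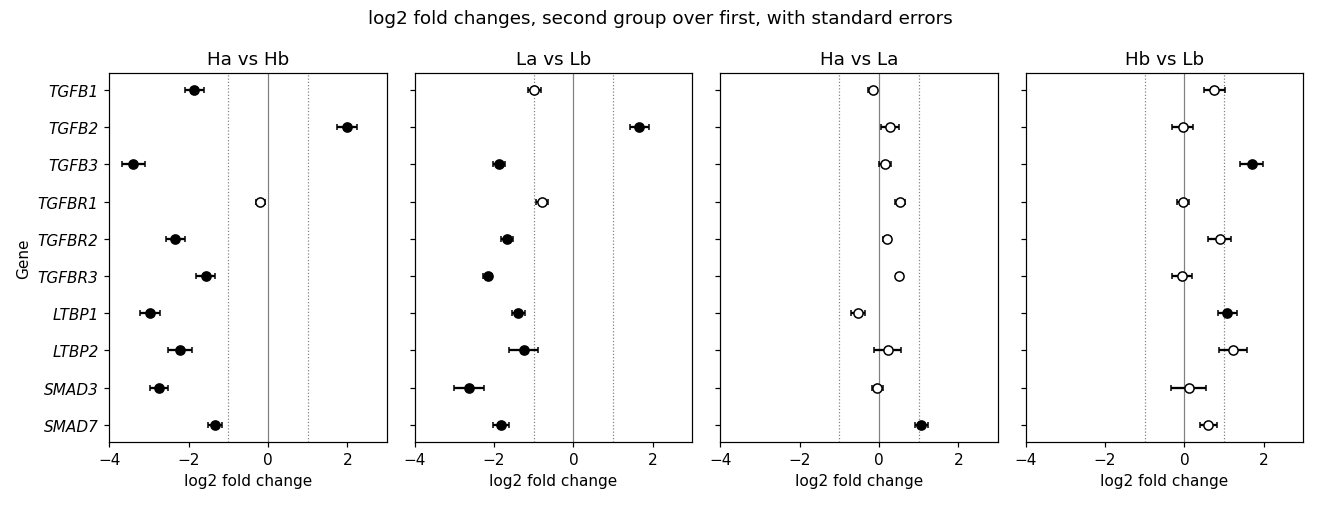
Log2 fold change (horizontal axis) of the 10 genes (vertical axis) in the 4 comparisons, with bars of 1 SE either side, filled symbols for called genes and dotted lines at the fold threshold. TGFB2 lies to the right in both comparisons of ages, at 1.99 and 1.66, and the other 9 genes lie to the left, as they did under every scaling run.

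Around the 10 genes, 98 further genes of the TGF-beta superfamily and pathway were listed by role. From Ha to Hb, 51 of the 85 tested were called (51.4% of all genes), 43 lower (23.2% of all genes) and 8 higher (28.2% of all genes), with a median log2 fold change of -1.07 beside -0.020 over all genes. From La to Lb, 48 of 88 were called (47.6% of all genes), 38 lower (20.1%) and 10 higher (27.5%), with a median of -0.93 beside 0.011. The total called is thus near that of all genes in both breeds, and the counts by role stand against the same shares. Genes of latency, storage and activation of the ligand, the group that LTBP1 belongs to by function, gave 13 lower of 18 in HZ and 10 lower of 18 in LC boars, with none higher. THBS1, a matrix protein that activates latent TGF-beta, went from 53.5 ± 4.28 CPM in Ha to 4.21 ± 1.24 CPM in Hb, a log2 fold change of -3.66 (SE 0.25, edgeR adjusted p = 1.94e-05). LTBP3 went from 573 ± 110 CPM in La to 51.4 ± 10.5 CPM in Lb, or -3.46 (SE 0.21, edgeR adjusted p = 2.06e-06). Of 17 textbook target genes 12 were lower and 1 was higher from Ha to Hb, and 7 were lower and 4 higher from La to Lb. The collagen gene COL1A1 changed most among those that fell in HZ boars, by -4.99 (SE 0.33, edgeR adjusted p = 1.78e-05), and ID3, a BMP target, in LC boars, by -2.21 (SE 0.17, edgeR adjusted p = 9.34e-06). CDKN2B, a cell-cycle inhibitor, rose by 4.17 from Ha to Hb (SE 0.41, edgeR adjusted p = 0.000101) and by 3.64 from La to Lb (SE 0.36, edgeR adjusted p = 3.84e-05).

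Other superfamily ligands numbered 22, of which 7 of 15 tested were lower and 2 higher from Ha to Hb, and 7 of 17 were lower and 4 higher from La to Lb. AMH, the Sertoli cell hormone, led those that fell, with -4.91 (SE 0.47, edgeR adjusted p = 9.21e-05) in HZ and -6.36 (SE 0.58, edgeR adjusted p = 2.31e-05) in LC boars. Its receptor AMHR2 gave -3.40 (SE 0.48, edgeR adjusted p = 0.000585) and -3.89 (SE 0.17, edgeR adjusted p = 2.78e-07). Of 11 listed receptors, 3 were lower in HZ and 3 in LC boars, with none higher. AMHR2 was in both sets, which were not the same. LEFTY2, an inhibitor of nodal signals, rose by 3.91 in HZ boars (SE 0.98, edgeR adjusted p = 0.00894), with 0.604 to 9.50 CPM in the Hb libraries, and was called higher with age in LC boars too, with 0 to 0.297 CPM in La and 1.85 to 9.93 CPM in Lb. BMP5 was called higher in LC boars at 120 days, with 3.62 ± 1.85 CPM in Lb, but no fold is given because its La libraries were at 0.033 ± 0.058 CPM. Of 6 other SMADs, 1 was lower in HZ (SMAD1, -1.18, SE 0.13, edgeR adjusted p = 0.000207) and 3 were lower in LC boars, led by SMAD6 at -2.20 (SE 0.21, edgeR adjusted p = 3.16e-05). The antagonist CHRD, which binds BMPs, gave -4.33 (SE 0.27, edgeR adjusted p = 1.44e-05) and -2.99 (SE 0.17, edgeR adjusted p = 1.58e-06), among 2 of 3 and 3 of 4 antagonists lower. Of 15 intracellular regulators 5 were lower and 5 higher in HZ, and 5 were lower and 2 higher in LC boars. SMURF1, a ubiquitin ligase for SMADs and receptors, rose by 3.76 (SE 0.24, edgeR adjusted p = 1.45e-05) and 2.61 (SE 0.14, edgeR adjusted p = 1.02e-06). PMEPA1, a feedback inhibitor, gave -2.01 (SE 0.19, edgeR adjusted p = 8.41e-05) and -1.85 (SE 0.17, edgeR adjusted p = 2.29e-05).

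Between breeds, 11 of 84 listed genes were called from Ha to La (7.62% of all genes), 8 higher (3.6%) and 3 lower in La (4.01%), with a median of 0.21 beside 0.0020 over all genes. They included LTBP3 at 1.45 (SE 0.20, edgeR adjusted p = 0.00306), AMH at 1.96 (SE 0.28, edgeR adjusted p = 0.00351) and SMAD6 at 1.05 (SE 0.16, edgeR adjusted p = 0.00451), the inhibitory SMAD of the BMP branch. PMEPA1 at 1.09 (SE 0.15, edgeR adjusted p = 0.00295), ID3 at 1.04 (SE 0.11, edgeR adjusted p = 0.00155), BAMBI at 1.10 (SE 0.17, edgeR adjusted p = 0.0047) and the endothelial receptor ACVRL1 at 1.10 (SE 0.12, edgeR adjusted p = 0.00173) were also higher in La. BMP7 at -1.34 (SE 0.26, edgeR adjusted p = 0.0105) and the matricellular gene CTGF at -1.96 (SE 0.10, edgeR adjusted p = 0.000126) were lower. From Hb to Lb, 12 of 83 were called (3.85% of all genes), all higher in Lb (2.65% of all genes), with a median of 0.35 beside 0.0044, and 6 of them were among the 17 tested genes of latency, storage and activation. BGN, a small proteoglycan that binds TGF-beta, led these at 2.42 (SE 0.24, edgeR adjusted p = 0.00627), and COL1A1 led the 4 target genes at 4.53 (SE 0.26, edgeR adjusted p = 0.000951). CHRD gave 1.56 (SE 0.34, edgeR adjusted p = 0.0436) and PMEPA1 gave 1.29 (SE 0.23, edgeR adjusted p = 0.0249). None of 14 other ligands was called by edgeR (2 at an unadjusted p under 0.05, DESeq2 called 0), nor of 11 other receptors (2, DESeq2 called 1) or 6 other SMADs (1, DESeq2 called 0). Without Hb3, Lb1, Lb2 or Lb3 the 12 became 5, 6, 5 and 6, and with the replicate block 7. The change with age differed between breeds for 14 of 90 listed genes (5.14% of all genes), 11 with the higher value in LC (3.51%), among them THBS1 at 2.53 (SE 0.35, edgeR adjusted p = 0.00367), COL1A1 at 4.02 (SE 0.35, edgeR adjusted p = 0.000372) and CHRD at 1.32 (SE 0.29, edgeR adjusted p = 0.0237). The other 3 had the lower value in LC (1.62% of all genes), ACVRL1 at -2.29 (SE 0.38, edgeR adjusted p = 0.00834), SMAD6 at -1.24 (SE 0.29, edgeR adjusted p = 0.0274) and SMURF1 at -1.16 (SE 0.27, edgeR adjusted p = 0.027). Without Ha1, Hb3, La2 or La3 the 14 became 9.

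INHBA has a pair of entries in the table, and the listed counts use the annotated gene, at 2.37, 0.322, 2.0 and 0.126 mean CPM in Ha, Hb, La and Lb. The assembled transcript was at 60.9, 19.7, 312 and 29.8 mean CPM. Taken in its place, the assembled transcript made the counts 12 from Ha to La and 15 in the difference in the change with age. From Ha to La its log2 fold change was 2.36 (SE 0.19, edgeR adjusted p = 0.000531), above that of AMH. The annotated gene gave -0.24 (SE 0.33, edgeR adjusted p = 0.65). In the difference in the change with age they gave -1.76 (SE 0.33, edgeR adjusted p = 0.0124) and -1.09 (SE 1.19, edgeR adjusted p = 0.619), respectively.

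Many markers of the somatic cell types of the testis were called lower at 120 days too (23.2% of all genes in HZ and 20.1% in LC boars were), and their part in the results above was not tested. No listed marker was at 0 in all 12 libraries, and the gene named as the most abundant of a list is the one with the highest CPM summed over the 12 libraries, which need not lead in each group. Of 10 genes of peritubular and stromal cells, 8 were lower from Ha to Hb and 5 lower and 1 higher from La to Lb. COL3A1 was the most abundant, though not in Hb2 and Hb3, and the summed level was 4730, 4590 and 4510 CPM in Ha, 608, 354 and 255 CPM in Hb, 6910, 6180 and 7610 CPM in La and 3080, 3010 and 2570 CPM in Lb. At 120 days, where TGFB3 and LTBP1 were higher in LC boars, 5 of these 10 were called higher in Lb (2.65% of all genes), and 5 were called with the higher value in LC in the difference in the change with age (3.51% of all genes). Leydig cell markers, of which CYP17A1 was the most abundant over the 12 libraries and INSL3 by the mean of Hb, summed to 10100, 9590 and 8750 CPM in Ha, 4070, 331 and 268 CPM in Hb, 13700, 9330 and 11200 CPM in La and 4920, 7420 and 3090 CPM in Lb, with 4 and 5 of 7 lower with age. From Hb to Lb edgeR called 0 of the 7 (3 at an unadjusted p under 0.05, DESeq2 called 0). The 8 Sertoli cell markers, of which INHA was the most abundant over the 12 libraries and CLDN11 by the means of Hb and Lb, summed to 1270, 1210 and 1660 CPM in Ha, 405, 579 and 467 CPM in Hb, 2640, 3210 and 2910 CPM in La and 605, 753 and 640 CPM in Lb. Of these, 4 were lower with age in each breed. AMH, INHA and FSHR were the 3 called higher in La than in Ha (3.6% of all genes), while SOX9, GATA4, WT1, DHH and CLDN11 were not called. In that comparison 1 Leydig cell marker, HSD17B3, was also called higher, and 1 spermatogonia marker, DAZL, was called lower (4.01% of all genes).

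Endothelial markers, 5 genes of which VWF was the most abundant, summed to 669, 681 and 616 CPM in Ha, 173, 305 and 186 CPM in Hb, 795, 627 and 756 CPM in La and 316, 497 and 278 CPM in Lb, with 5 and 3 lower with age and 1 higher from Hb to Lb (2.65% of all genes). The 5 macrophage markers, of which CSF1R was the most abundant over the 12 libraries and CD163, by a small margin, by the mean of Ha, summed to 124, 101 and 106 CPM in Ha, 17.5, 20.1 and 10.7 CPM in Hb, 122, 107 and 115 CPM in La and 21.3, 37.8 and 35.9 CPM in Lb, with 5 and 4 lower with age and likewise 1 higher from Hb to Lb. Markers of meiotic and later germ cells went the other way. The 10 spermatid markers, of which PRM1 was the most abundant over the 12 libraries and SPACA1 by the mean of Ha, were near 0 at 30 days, with sums of 4.99, 5.54 and 6.48 CPM in Ha and 8.87, 7.74 and 4.41 CPM in La, and reached 6520, 5790 and 8230 CPM in Hb and 4190, 3450 and 3150 CPM in Lb. All 9 that were tested were higher at 120 days in each breed (28.2% of all genes in HZ and 27.5% in LC boars were), and 1 of 10 was lower in Lb than in Hb (1.2% of all genes). Spermatocyte markers, 8 genes of which PIWIL1 was the most abundant, summed to 31.7, 35.6 and 19.9 CPM in Ha, 783, 676 and 651 CPM in Hb, 16.1, 14.1 and 12.7 CPM in La and 502, 485 and 494 CPM in Lb, with all 8 higher with age in each breed, against the same shares, and 4 lower in La than in Ha (4.01% of all genes). The 11 spermatogonia markers, of which DDX4, which later germ cells also carry, was the most abundant over the 12 libraries and ZBTB16 by the means of Ha and La, summed to 369, 363 and 304 CPM in Ha, 857, 820 and 817 CPM in Hb, 223, 222 and 231 CPM in La and 701, 638 and 657 CPM in Lb, with 3 higher and 6 lower in HZ and 4 higher and 5 lower in LC boars. ACTA2, COL1A1, COL1A2, DCN, AMH and INHA stand both in a marker list and in the pathway list.

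Long non-coding RNAs were measured in a separate table, and 4 of its known genes lie within 10 kb of the 10 genes. LOC110260036 (chromosome 3, positions 106234669 to 106301206) overlapped LTBP1 at its end of lower coordinate. It had summed estimated counts over 8 transcripts of 11, 9 and 14 in Ha, 1, 1 and 2 in Hb, 10, 13 and 21 in La and 1, 0 and 2 in Lb. It was thus higher in every 30-day library than in every 120-day library, as LTBP1 was. Positions were matched without regard to strand, and how reads over both genes were assigned is not given in the sources used here. LOC110260037 (positions 106301656 to 106304927) had at most 5 counts and LOC110260038 (positions 106723496 to 106725999) at most 8. At TGFBR3, LOC110260383 (chromosome 4, positions 125260683 to 125262368) had 0 counts in all 12 libraries. None of these was tested.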

How the data were processed

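RNA from testes of 12 boars (4 groups of 3) was sequenced after removal of ribosomal RNA. The authors trimmed reads with fastp 0.18.0, removed ribosomal reads with Bowtie2 2.2.8, aligned to Sus scrofa 11.1 with HISAT2 2.1.0 and assembled transcripts with StringTie 1.3.4. The deposited estimated counts per gene, not all whole numbers, were rounded to whole numbers before testing, and the tool that made them is not given in the sources used here. The deposited FPKM values were made by the authors with StringTie and were used as given. The total estimated count per library ran from 17165519 to 23758931. Gene positions are those of RefSeq on Sscrofa11.1.

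Each of the 4 comparisons (of ages within HZ and within LC, and of breeds at 30 and at 120 days) was fitted on its 6 libraries with edgeR 4.0.16 in R 4.3.3, with genes kept by filterByExpr (minimum count 10), TMM scaling, the quasi-likelihood test and Benjamini-Hochberg adjustment. The difference between the breeds in the change with age (the interaction of breed and age, LC minus HZ) was fitted on 12 libraries. A gene was called at an adjusted p under 0.05 with a log2 fold change above 1 or below -1. The SE is the absolute log2 fold change divided by the square root of the F statistic. Groups are described as overlapping where the ranges of their libraries do. CPM were scaled by TMM over 12 libraries.

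Alternatives were DESeq2 1.42.0, limma 3.58.1 on log2(FPKM + 1) and log2(FPKM + 0.1) for genes with a mean of at least 0.1 FPKM, RLE scaling, library size alone, no filter, a filter of 10 counts in each library of at least 1 group, 1 fit of all 12 libraries, no fold threshold, the replicate number as a block, and leaving out each library. The scripts were tested on simulated data. Tables and figures were made with Python 3.11.15, numpy 2.4.6, pandas 2.3.3 and matplotlib 3.10.9.

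The genes and the lists were chosen with earlier results of these data known. Beside the 10 genes, the text names in each comparison and role of the pathway list (98 genes: other superfamily ligands, other receptors, other SMADs, latency, storage and activation, extracellular antagonists, intracellular regulators, textbook target genes) the called gene with the largest change in each direction, for each of the 10 genes the 2 genes with the highest Pearson r of log2 CPM (prior count 2), and the most abundant gene of each marker list, by CPM summed over the 12 libraries. The marker lists were peritubular and stromal cells (ACTA2, COL1A1, COL1A2, COL3A1, DCN, DES, LUM, MYH11, PDGFRA, PDGFRB), Leydig cells (CYP11A1, CYP17A1, HSD17B3, HSD3B1, INSL3, LHCGR, STAR), Sertoli cells (AMH, CLDN11, DHH, FSHR, GATA4, INHA, SOX9, WT1), endothelial cells (CDH5, EMCN, KDR, PECAM1, VWF), macrophages (AIF1, CD14, CD163, CD68, CSF1R), spermatids (ACRV1, AKAP4, ODF1, PRM1, PRM2, SPACA1, SPACA3, TNP1, TNP2, TSSK6), spermatocytes (DMC1, HORMAD1, MEIOB, PIWIL1, SPO11, SYCP1, SYCP2, SYCP3) and spermatogonia (DAZL, DDX4, GFRA1, ID4, KIT, NANOS2, NANOS3, SALL4, STRA8, UTF1, ZBTB16). The estimated counts of long non-coding RNAs, deposited in a separate table, were summed per gene and not tested.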

Additional observations from a re-analysis of the deposited data

Results flagged for a closer look

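The change of TGFB3 with age differed between the breeds by 1.51 on the log2 scale, and that of LTBP1 by 1.57, each in the test of that difference itself (edgeR adjusted p = 0.018 and 0.0153). In the table of long non-coding RNAs, which no comparison made here uses, 3 genes at the LTBP1 locus had summed estimated counts above the limit of 3 that a count of 0 allows. The highest library value was 21 for LOC110260036, 5 for LOC110260037 and 8 for LOC110260038. The limit covers counting error only.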

How the results depend on the processing

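Of the log2 fold changes of the 10 genes under the alternatives, 788 kept their direction and their side of the threshold, 15 came to pass it, 21 came to miss it and 26 changed sign. No value that changed sign had been called. Of the counts of called genes, 212 stayed within 1.5 times the reported value and 43 did not. Where no cause is named, the cause was not tested.

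Signs turned as follows. From Hb to Lb, the log2 fold changes of TGFB2, TGFBR1 and TGFBR3 became 0.077, 0.0983 and 0.13 with limma on log2(FPKM + 1), 0.0972, 0.107 and 0.155 with limma on log2(FPKM + 0.1), and 0.0256, 0.0287 and 0.00822 with library size alone. Leaving out each library in turn gave, from Hb to Lb, -0.242 to 0.231 for TGFB2, -0.154 to 0.0186 for TGFBR1, -0.295 to 0.0857 for TGFBR3 and -0.189 to 0.472 for SMAD3. From Ha to La it gave -0.285 to 0.489 for LTBP2 and -0.144 to 0.0772 for SMAD3, and for the difference in the change with age of SMAD3 it gave -0.193 to 0.495.

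From Ha to La, limma on log2(FPKM + 1) called 0 of the 10 genes, 5 listed pathway genes and 507 of all genes, and limma on log2(FPKM + 0.1) called 0 of the 10 (in each of these fits 4 had an unadjusted p under 0.05, while edgeR and DESeq2 called 1). Without the fold threshold, which adds genes by its construction, the counts were 3, 29 and 3333. Leaving out each library gave 0 to 1 of the 10 (0 without La2, with 4 at an unadjusted p under 0.05).

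From Hb to Lb, limma on log2(FPKM + 1) called 1 of the 10 and 7 pathway genes. Of all genes, DESeq2 called 1153 and the fit of all 12 libraries called 1258. Leaving out each library gave 0 to 3 of the 10, 5 to 14 pathway genes and 97 to 1029 of all genes, where 628 were reported. The count was 1029 without Hb2, 119 without Hb3, 182 without Lb1, 97 without Lb2 and 139 without Lb3, and edgeR called 0 of the 10 in the last 4 of these (4 or 5 at an unadjusted p under 0.05, while DESeq2 on all 6 libraries called 3). For the difference in the change with age, limma on log2(FPKM + 1) called 1 of the 10. Of all genes, DESeq2 called 1364, limma on log2(FPKM + 0.1) called 1360, and leaving out each library gave 437 (without Ha1) to 1242 (without Hb2), where 890 were reported. The alternatives for the 14 pathway genes called in that difference were added after seeing the data, and leaving out each library gave 9 (without Ha1, Hb3, La2 or La3) to 15.

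Same-numbered libraries shared little deviation from their group means over 17332 genes, with correlations from -0.0222 to 0.0527. Whether a replicate number marks a shared litter or batch is not given in the sources used here, and these correlations cannot tell. With the replicate block from Hb to Lb, edgeR called 0 of the 10 (6 at an unadjusted p under 0.05, DESeq2 without the block 3), 7 pathway genes and 154 of all genes, and the log2 fold change of SMAD3 was -0.0241. In the other comparisons the block left 8430, 7770 and 1030 genes called, and 672 in the difference in the change with age. It changed no other call of the 10 genes.

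With libraries of 17165519 to 23758931 estimated counts, each of the 10 genes was above the limit of 3 counts in each library, the lowest being LTBP2 at 36.59 in Hb2. An adjusted p above the threshold does not show that the values did not differ.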
